A study of Mus musculus with 12 samples.

Results

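Oxidative phosphorylation was followed across the cycle of the seminiferous epithelium through 101 genes of the respiratory chain and ATP synthase, of 19938 genes measured. They were taken by symbol: every gene with a probe set of a single symbol that begins with Nduf, Uqcr, Atp5, Sdh followed by a to d, or Cox followed by a digit. By role, 81 encode subunits or their isoforms and 20 encode assembly factors or related proteins. Complex I gave 34 subunits, complex II 4, complex III 8, complex IV 18 with all its isoforms, and ATP synthase 17.

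The respiratory chain sits in the inner mitochondrial membrane. Complexes I and II pass electrons to ubiquinone, complex III passes them to cytochrome c, and complex IV, cytochrome c oxidase, passes them to oxygen. Complexes I, III and IV pump protons, and ATP synthase lets them flow back through its membrane part, Fo, to drive ATP synthesis in its head, F1. Male germ cells carry their own isoforms of a few of these proteins, among them Cox6b2, Cox7b2 and Cox8c of complex IV, beside the forms found in most tissues.

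The study measured whole testes of adult male mice of a mixed 129/C57BL6 background on 12 arrays, with 2 samples for each of 6 spans of stages. In the order of the cycle from meiosis on, these were XII-I and II-IV, then IV-VI, then VII, followed by VIII-IX and finally IX-XI. All animals had been synchronized. From 2 to 8 days postpartum they received WIN 18,446, which blocks retinoic acid synthesis, at 100 ug per gram on each of 7 days, then retinoic acid (200 ug) at 9 days postpartum, with 43 to 49 days of recovery, which puts them at 52 to 58 days of age. There was no untreated group. Whether both samples of a group are different mice is not stated, so the p-values reflect the spread of these samples alone, which may be technical. Levels below are log2 intensities, fold changes are on the linear scale, and SDs are over 2 samples.

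In a whole testis, fewer cells of a type and less RNA per cell cannot be told apart. The arrays had median intensities of 296.9 to 309.1 and correlated with their group partner at 0.987 to 0.995. For 9 of 12 arrays, however, the nearest array belonged to another group, so most arrays did not pair by stage. II-IV sample 1 was at 0.998 with IV-VI sample 2 against 0.987 with its partner, and the VIII-IX arrays were both nearest to IX-XI sample 1, at 0.995. All 8 spermatocyte, all 6 round spermatid and all 7 elongating spermatid markers lay at or above the median of all genes, as did 4 of 6 spermatogonium markers. So did 6 of 7 Sertoli cell, 5 of 5 Leydig cell and 4 of 4 peritubular myoid markers. It was 1 of 4 for macrophage, 0 of 4 for epididymal and 0 of 5 for fat markers. VII sample 2 stood apart in its somatic markers. The summed intensity of 7 Sertoli cell markers was 19347 there and 12536 to 14575 on the other arrays, and that of 5 Leydig cell markers was 19582 there and 8021 to 15218 elsewhere.

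Most of the respiratory chain varied little over the cycle. The range of the 6 group means had a median of 0.27 log2 over the 101 genes, against 0.34 over all genes and 0.49 over the 8637 genes whose mean level lay between 8.64 and 12.05, the span of most members. None of the 101 reached a 2-fold range (0 members), which 9.36% of all genes did, and the widest, Ndufa13, spanned 1.73-fold. In limma's F test among the 6 groups, 13 of 101 members (12.9%) passed at an adjusted p under 0.05, against 19.9% of all genes. At an unadjusted p under 0.05 it was 22 members (21.8%), against 36.2% of all genes. The difference between these shares was not tested. Without VIII-IX sample 1 the count was 4 (7.61% of all genes passed in that fit). It was 5 or 6 without either IV-VI or IX-XI sample, XII-I sample 1, VII sample 2 or VIII-IX sample 2, in fits where 7.75% to 14.3% of all genes passed. With both VIII-IX and IX-XI reduced to their sample 1 it was 0, and 19 of all genes were left.

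**Figure D1:**
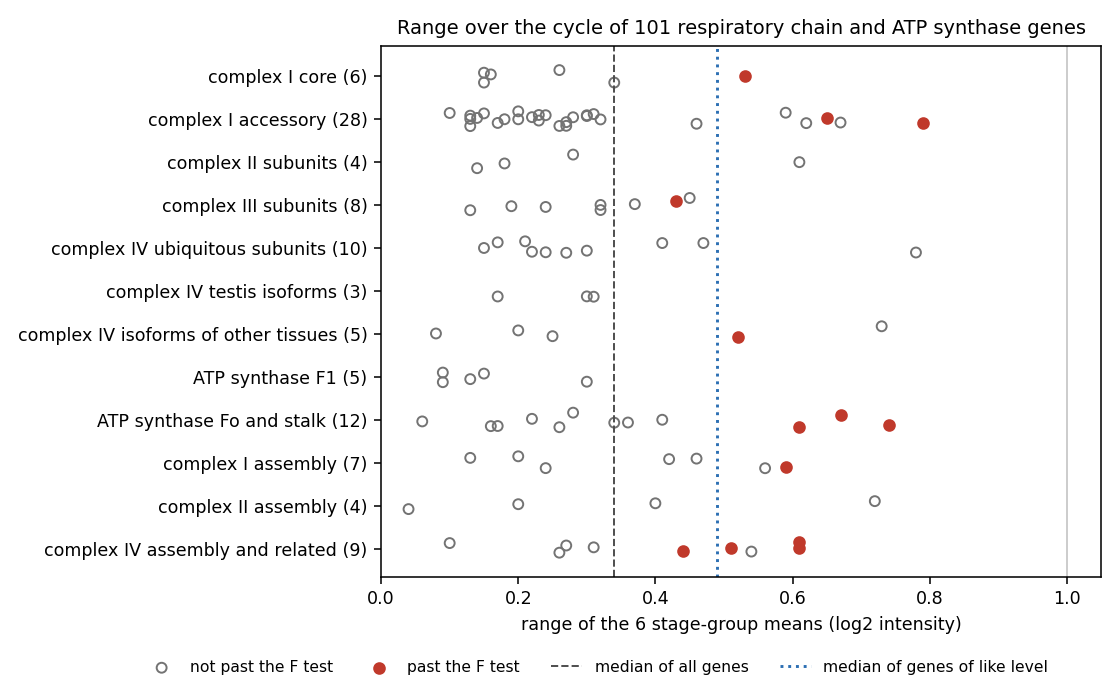
Range of the 6 stage-group means of each of 101 genes (horizontal axis, log2 intensity), by role with the number of genes in brackets. Filled points passed the F test (13 genes). The dashed line is the median of all genes (0.34) and the dotted line that of genes of like level (0.49), and every member lies left of the grey line at 1 (2-fold).

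The F1 genes had a median range of 0.13 log2. In F1 of ATP synthase, Atp5a1 and Atp5c1, its alpha and gamma subunits, ranged 0.09 log2 each, Atp5d, delta, 0.13, and Atp5b, the catalytic beta subunit, 0.15. None of the 5 F1 genes passed the F test (0 of 5, against 19.9% of all genes). The same held at an unadjusted p under 0.05 in limma (0 of 5, against 36.2%). The widest, Atp5e, the epsilon subunit, spanned 0.30 with VIII-IX sample 1 highest at 10.58 and VII sample 2 lowest at 9.97. The 6 complex I core genes were spread more widely: Ndufs8 and Ndufv1 ranged 0.15, Ndufv2 0.16, Ndufs7 0.26, Ndufs3 0.34 and Ndufs1, which passed the F test, 0.53. In complex III, Uqcrc1 and Uqcrc2, the core proteins, ranged 0.13 and 0.19, the Rieske protein Uqcrfs1, which passed the F test, 0.43, and the widest, Uqcr11, a small subunit, 0.45. Uqcr11 was at 10.43 and 10.24 in IX-XI and averaged 9.88 ± 0.16 in XII-I (SD, n = 2), with the other arrays between 9.77 and 10.26, so IX-XI overlapped VIII-IX (limma, adjusted p = 0.154). In complex II, Sdhb ranged 0.14 and Sdha, the flavoprotein, 0.18. Among accessory and stalk subunits, Atp5j2 ranged 0.06, Ndufa8 0.10, Ndufa6 and Ndufs4 0.13 each, and Atp5h and Atp5o 0.16 and 0.17. In complex IV the lowest ranges among ubiquitous subunits were those of Cox4i1 (0.15), Cox5b (0.17) and Ndufa4 (0.21).

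The members that did change fell into several patterns, and VIII-IX and IX-XI stood out from the rest in the most stable of them. Ndufa13, an accessory subunit of complex I, was at 11.77 and 11.49 in VIII-IX and at 11.51 and 11.53 in IX-XI, while the other 8 arrays lay between 10.74 (IV-VI sample 2) and 11.29 (XII-I sample 1). All 4 arrays of the late groups lay above all others. Against the mean of the other 5 groups it rose in VIII-IX by 0.53 ± 0.10 log2 (SE, n = 2 against 10), a 1.45-fold difference (limma, adjusted p = 0.0215). Its F test had adjusted p = 0.0189 and passed whichever single array was left out.

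Atp5g2, a gene for the c subunit of the rotating Fo ring, went the other way. It was at 10.85 and 10.62 in VIII-IX, at 10.67 and 10.77 in IX-XI, and between 11.02 and 11.45 on the other 8 arrays. It fell by 0.43 ± 0.09 log2 in VIII-IX (limma, adjusted p = 0.0297) and by 0.45 ± 0.09 in IX-XI (adjusted p = 0.0356), both against the mean of the other 5 groups (SE, n = 2 against 10). All 3 of its probe sets had IV-VI as the highest group, and its F test (adjusted p = 0.0172) passed in all 12 leave-outs. The other genes for the same protein, Atp5g1 and Atp5g3, ranged 0.26 and 0.41 log2 and did not pass (adjusted p = 0.228 and 0.215 in limma's F test).

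Cox15, which makes heme A for cytochrome c oxidase, was low in the same arrays. It was at 8.50 and 8.49 in VIII-IX and at 8.63 and 8.74 in IX-XI, against 8.91 to 9.16 elsewhere. In VIII-IX it fell by 0.46 ± 0.07 log2 (SE, n = 2 against 10; limma, adjusted p = 0.0148), and its F test (adjusted p = 0.0164) passed in all 12 leave-outs. Cox18, which helps insert a mitochondrially encoded subunit into the membrane, was at 10.45 and 10.32 in VIII-IX, at 10.37 and 10.62 in IX-XI and at 10.68 to 10.84 elsewhere. Its difference in VIII-IX was -0.32 ± 0.08 log2 (limma, adjusted p = 0.0370), but its F test (adjusted p = 0.0446) held in 1 of 12 leave-outs. Cox10, which acts just before Cox15 in heme A synthesis, did not follow it: it was highest in VIII-IX, at 10.02 and 9.96, and lowest in IV-VI, at 9.56 and 9.40 (adjusted p = 0.0434, kept in 2 of 12 leave-outs). XII-I, at 10.02 and 9.76, and IX-XI, at 10.02 and 9.81, overlapped VIII-IX.

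Promoters of Atp5g2 and Cox15 are shown because both genes were lowest in VIII-IX and IX-XI and because nuclear genes of the respiratory chain are known targets of NRF1 and of the ETS factor GABPA. They are RefSeq sequences of GRCm38.p6, from 150 bases before to 50 after the annotated start, with capitals at matches to GCATGCGC (NRF1) or CTTCCGG (GABPA) on either strand.
Atp5g2, chr15:102670998-102671197, minus strand: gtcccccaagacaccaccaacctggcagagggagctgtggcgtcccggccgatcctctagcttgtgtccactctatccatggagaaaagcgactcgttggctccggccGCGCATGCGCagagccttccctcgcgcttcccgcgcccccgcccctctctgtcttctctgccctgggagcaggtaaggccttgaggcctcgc
Cox15, chr19:43752951-43753150, minus strand: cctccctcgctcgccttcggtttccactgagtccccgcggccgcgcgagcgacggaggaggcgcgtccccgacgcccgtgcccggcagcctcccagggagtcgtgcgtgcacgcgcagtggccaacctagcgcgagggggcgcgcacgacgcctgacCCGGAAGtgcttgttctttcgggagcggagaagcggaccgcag
In Atp5g2 the capitals join 2 overlapping NRF1 matches on opposite strands, whose first bases lie at -42 and -40 from the start. In Cox15 a GABPA match on the opposite strand begins at base 8. Of 83 members with a promoter in the table (250 bases before to 50 after the start), 12 (14.5%) held GCATGCGC, against 4.27% of 15614 measured genes with a promoter. CTTCCGG stood in 25 (30.1%, against 13.6%), AAGATGGC, a YY1 motif, in 12 (14.5%, against 3.77%), and TGACGTCA, the cAMP response element bound by CREB and CREM, in 4 (4.82%, against 2.72%). In members, 0 windows had matches of different motifs that overlapped. These are matches of letters in the windows and describe no binding. Of other members lower in VIII-IX and IX-XI, Cox8a held CTTCCGG, while Cox18, Cox5a and Cox6c were not among members with any of these motifs. For 18 members no promoter was available, and whether Cox18, Cox5a and Cox6c are among them is not given here. Cox10, highest in VIII-IX, held CTTCCGG and AAGATGGC. Whether matches go with a pattern over the cycle was not tested.

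The same split of VIII-IX and IX-XI from the other 8 arrays, looked for after the values were seen, held in 4 members upward and 6 downward. Over all genes, 4.93% lay above and 4.63% below in this way, so the members' counts were near the background. The 4 above were Ndufa13, Atp5mpl, Cox7a2 and Ndufa3, and the 6 below were Atp5g2, Cox15, Cox18, Cox8a, Cox6c and Cox5a. Atp5mpl, a small protein of Fo, was at 11.33 and 11.15 in VIII-IX and at 11.15 and 11.25 in IX-XI, against 10.39 (II-IV sample 2) to 11.09 (VII sample 1) elsewhere. Its F test had adjusted p = 0.0427 and held in 2 of 12 leave-outs. Cox7a2, the ubiquitous form of subunit 7a, was at 12.15 and 12.08 in VIII-IX and rose there by 0.30 ± 0.07 log2 (limma, adjusted p = 0.0442), with adjusted p = 0.0653 in the F test. Against the other 5 groups, 2 members in all rose in VIII-IX and 3 fell (3.54% and 4.31% of all genes). Leaving out XII-I sample 1 raised these 5 calls to 9, while the share of all genes called went from 7.84% to 13.6%. They dropped to 2 when IX-XI sample 2 or either IV-VI sample was omitted, to 3 when VII sample 2 was, and to 0 when either VIII-IX sample was (0% to 5.58% of all genes in these fits).

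Germ cell and other markers also moved in these groups. In VIII-IX, Spag6, a round spermatid marker, fell by 1.30 ± 0.28 log2 (SE, n = 2 against 10; limma, adjusted p = 0.0287). Adgre1 of macrophages fell by 0.60 ± 0.13 (adjusted p = 0.0322), and Alas2 of red blood cells by 1.36 ± 0.29 in VIII-IX and 1.31 ± 0.29 in IX-XI (adjusted p = 0.0276 and 0.0418). Acr of round spermatids fell in VIII-IX by 0.28 ± 0.07 (limma, adjusted p = 0.0392). Spaca1, Crem and Acrv1 of that list averaged 10.70, 11.39 and 12.32 in VIII-IX (11.45, 11.63 and 12.40 over all arrays). Csf1r and Mrc1 of macrophages averaged 8.22 and 9.51 there (8.42 and 9.62 over all arrays). Only Tssk1 of round spermatids, at 12.56 (12.33), and Cd68 of macrophages, at 8.28 (8.20), averaged higher in VIII-IX than over all arrays. The summed intensity of 4 macrophage markers was 1497 and 1584 in VIII-IX and 1327 to 2400 on the other arrays. Tnp1 and Tnp2, transition proteins of elongating spermatids, were highest in VIII-IX and lowest in IV-VI (F test, adjusted p = 0.0298 and 0.0259). The summed intensity of 7 elongating spermatid markers was 65156 to 73776 in VIII-IX and IX-XI, 65327 and 67994 in XII-I, and 50696 to 65871 on the other 6 arrays. For 6 round spermatid markers it was 19443 to 28872 in VIII-IX and IX-XI, 16594 and 21417 in XII-I, and 22568 to 33398 on the others. Their part in the members' changes was not tested.

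XII-I, the group that holds the meiotic divisions in the textbook order of the cycle, had the most calls. In limma's test 5 members rose there (7.49% of all genes did) and 1 fell (3.32% of all genes). Ndufb3, a subunit of the membrane arm of complex I, was at 9.00 and 8.89 in XII-I, above all other arrays, which lay between 8.24 (VII sample 2) and 8.74 (II-IV sample 2). It rose by 0.49 ± 0.08 log2 (SE, n = 2 against 10; adjusted p = 0.0211), and this call held in 11 of 12 leave-outs. Ndufs1, the largest core subunit of complex I, stood at 10.94 and 10.93 in XII-I, 10.82 and 10.89 in II-IV, 10.53 and 10.73 in IV-VI, and 10.32 to 10.55 on the 6 other arrays. It rose by 0.38 ± 0.09 log2 in XII-I (adjusted p = 0.0303). Sdhd, a membrane anchor of complex II, was at 10.86 and 10.57 there and at 10.06 to 10.49 elsewhere, a rise of 0.47 ± 0.10 log2 (adjusted p = 0.0262), although its F test gave adjusted p = 0.0535.

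Cox11, which delivers copper to cytochrome c oxidase, was at 10.92 and 11.00 in XII-I, but II-IV sample 2, at 11.06, was higher still. Its XII-I difference of 0.37 ± 0.10 log2 (adjusted p = 0.0478) held in 2 of 12 leave-outs, as did its F test (adjusted p = 0.0499). Ndufa4l2, a paralogue of Ndufa4 known for its response to low oxygen, was at 9.07 and 8.99 in XII-I and at 8.42 (VII sample 2) to 8.99 elsewhere, a rise of 0.34 ± 0.08 log2 (adjusted p = 0.0310). The member that fell in XII-I was Atp5md, a small Fo protein linked to pairing of the synthase. It was at 11.39 and 11.48 there, below all other arrays, and reached 12.10 and 11.99 in VII, a difference of -0.44 ± 0.08 log2 from the other 5 groups (adjusted p = 0.0229). All 3 of its probe sets had VII as the highest group and XII-I as the lowest. Of single arrays left out, XII-I sample 1 reduced the 6 calls to 0. XII-I sample 2, IV-VI sample 1 and IX-XI sample 2 each reduced them to 2, VIII-IX sample 1 to 4, and any other array left 5 or more. The share of all genes called in XII-I was 0% without XII-I sample 1 and 2.22% to 5.03% in the other 4 of these fits, against 10.8% with all arrays. Markers moved in XII-I as well: Ccna1, a spermatocyte cyclin, rose by 1.00 ± 0.21 log2, Acrv1, an acrosomal marker of round spermatids, fell by 1.48 ± 0.30, and Alas2 rose by 1.28 ± 0.29 (SE, n = 2 against 10; limma, adjusted p = 0.0256, 0.0244 and 0.0290). The 8 spermatocyte markers did not move together: Piwil1, Sycp2 and Pgk2 were lowest in XII-I, and Sycp3 was highest there. Their summed intensity was 28423 and 26094 in XII-I and 25349 to 28893 on the other arrays. The part of all these markers in the XII-I values was not tested.

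In IX-XI, 0 members rose and 2 fell (1.90% and 1.80% of all genes), Atp5g2 and Ndufa1. In II-IV, IV-VI and VII limma called 0 members and 0 of all genes (0% in either direction), while 11, 12 and 19 members had an unadjusted p under 0.05 (3428, 4060 and 3961 of all genes). The zeros moved with single arrays. In IV-VI it was 4 members (1311 of all genes) without II-IV sample 1 and 2 (1381) without XII-I sample 2. VII gave 4 members (778 genes) without its sample 1 and 1 (981) without II-IV sample 1, and II-IV gave 1 (1218) without XII-I sample 2. Array weights gave 9 members and 3034 genes in IV-VI. The IX-XI count was 4 without XII-I sample 1 or VII sample 1 (6.34% and 3.78% of all genes), 1 without VIII-IX sample 1 (3.19%), and 0 without either IV-VI or either IX-XI sample (0% to 3.32%).

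**Figure D2:**
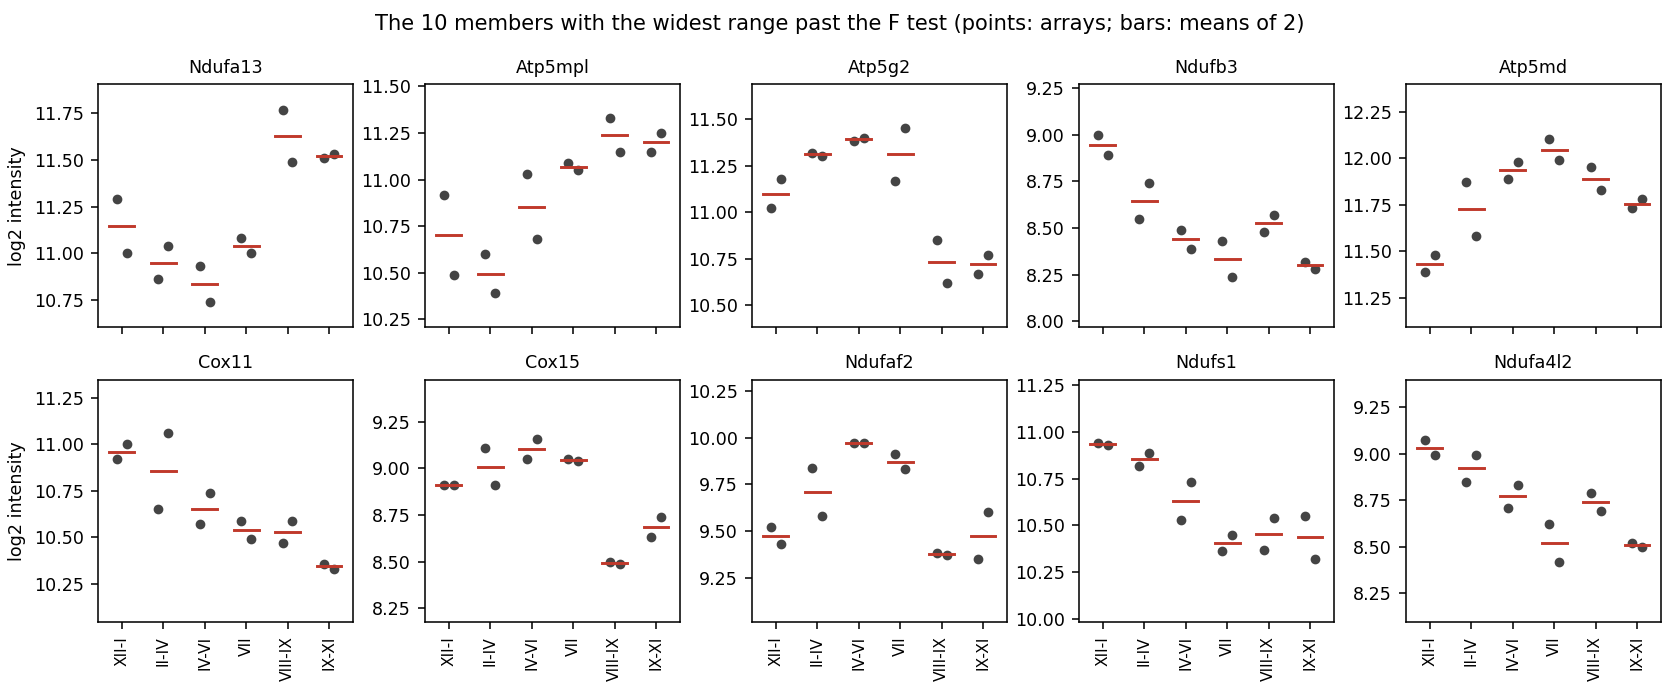
Log2 intensity (vertical axes, each spanning 1.3) of the 10 widest-ranging members that passed the F test, by stage group in the order of the cycle. Points are arrays and bars are means of 2. Ndufa13 is at 11.49 to 11.77 and Atp5g2 at 10.62 to 10.85 in VIII-IX and IX-XI, and Ndufb3 peaks at 9.00 in XII-I.

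Assembly factors passed the F test in 5 of 20 cases, against 8 of 81 subunits and isoforms, beside the 19.9% of all genes. Besides Cox10, Cox11, Cox15 and Cox18, the fifth was Ndufaf2, an assembly factor of complex I. Ndufaf2 was at 9.97 on both IV-VI arrays and at 9.91 and 9.83 in VII, at 9.38 and 9.37 in VIII-IX, and at 9.35 to 9.84 on the others (adjusted p = 0.0256, 7 of 12 leave-outs). Ndufaf1, Ndufaf3 and Ndufaf4 ranged 0.42, 0.46 and 0.56 log2 but had adjusted p of 0.0596, 0.0640 and 0.135. Sdhaf4, which acts in the maturation of complex II, had the widest range of its role at 0.72 log2, from 9.53 and 9.26 in XII-I to 8.75 and 8.59 in IX-XI, with VIII-IX sample 1 at 9.37 (adjusted p = 0.0665). Its 2 probe sets disagreed on the highest group. Sdhaf3, another factor of complex II, ranged 0.04. Among the subunits of complex III the single call was Uqcrfs1, the Rieske iron-sulphur protein, at 9.63 on both IV-VI arrays and 9.24 and 9.16 in VIII-IX, with VII sample 2 at 9.22 and IX-XI sample 1 at 9.20 (adjusted p = 0.0483, 1 of 12 leave-outs).

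The testis isoforms of complex IV were compared with their ubiquitous counterparts. Levels of different probe sets cannot be set against each other, so the comparison is of how each gene moved. Cox6b2, Cox7b2 and Cox8c ranged 0.30, 0.17 and 0.31 log2 over the groups. Of these 3 genes, 0 passed the F test, as 19.9% of all genes did. At an unadjusted p under 0.05 in limma it was also 0, against 36.2% of all genes, and 3 genes are too few to set against these shares. Cox6b1, Cox7b and Cox8a ranged 0.30, 0.78 and 0.47, and did not pass either (adjusted p = 0.35, 0.223 and 0.156). Cox7b lies on the X chromosome and Cox7b2 on an autosome.

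Promoter sequences of the pairs are given for a reader to compare, since the members of a pair encode the same subunit from separate genes (Cox8c had no entry). Capitals mark CTTCCGG, and the build and span are as above.
Cox6b2, chr7:4753045-4753244, minus strand: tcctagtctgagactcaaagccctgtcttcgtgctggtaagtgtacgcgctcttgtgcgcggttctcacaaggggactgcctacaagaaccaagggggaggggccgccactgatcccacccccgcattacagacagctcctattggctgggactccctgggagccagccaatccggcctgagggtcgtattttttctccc
Cox6b1, chr7:30626065-30626264, minus strand: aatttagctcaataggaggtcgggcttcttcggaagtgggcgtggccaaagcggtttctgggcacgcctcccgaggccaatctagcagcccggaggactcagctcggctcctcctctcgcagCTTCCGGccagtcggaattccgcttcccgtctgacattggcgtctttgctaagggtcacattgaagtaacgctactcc
Cox7b2, chr5:71548156-71548355, minus strand: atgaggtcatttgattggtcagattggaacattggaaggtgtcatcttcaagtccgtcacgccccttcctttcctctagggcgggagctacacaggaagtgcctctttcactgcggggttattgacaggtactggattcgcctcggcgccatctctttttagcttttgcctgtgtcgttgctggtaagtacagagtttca
Cox7b, chrX:106015550-106015749, plus strand: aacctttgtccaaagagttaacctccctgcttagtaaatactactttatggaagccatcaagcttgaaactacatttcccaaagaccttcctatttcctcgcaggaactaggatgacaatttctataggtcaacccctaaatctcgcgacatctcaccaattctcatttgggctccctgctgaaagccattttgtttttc
Cox8a, chr19:7217567-7217766, minus strand: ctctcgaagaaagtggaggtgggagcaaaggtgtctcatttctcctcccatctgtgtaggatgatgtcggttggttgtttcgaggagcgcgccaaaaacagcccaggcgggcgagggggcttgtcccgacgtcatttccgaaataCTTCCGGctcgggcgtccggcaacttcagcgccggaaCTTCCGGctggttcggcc
Cox6b1 had 1 match and Cox8a 2, while Cox6b2, Cox7b2 and Cox7b had 0 matches to any of the 4 motifs in these 200 bases.

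Cox7b separated 1 array from the rest. It was at 11.14 on VII sample 2 and between 9.79 (IX-XI sample 2) and 10.33 (VII sample 1) on the other 11 arrays, while Cox7b2 was lowest on VII sample 2, at 10.67, against 10.76 to 10.99 elsewhere. The per-array difference of Cox7b2 and Cox7b, taken from its mean, was -1.07 on VII sample 2, -0.04 on VII sample 1 and 0.00 to 0.37 on the others. In an exact permutation test over arrays of this difference among the 6 groups (one-sided on the F statistic, 10395 partitions, smallest possible p = 9.6e-05), p was 0.0122, and 0.0733 adjusted over 6 isoform pairs. The adjusted p was 0.0300 with the mean of the probe sets of each gene and 0.0307 with VIII-IX and IX-XI joined. Without VII sample 2 the range of Cox7b fell from 0.78 to 0.37 log2 and that of Cox7b2 from 0.17 to 0.12. Both Cox7b probe sets were highest in VII.

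Cox8a showed the same array. It was at 10.46 on VII sample 2, 9.92 on VII sample 1, 10.02 to 10.19 in XII-I, II-IV and IV-VI, and 9.72 to 9.88 in VIII-IX and IX-XI. Cox8c was lowest on VII sample 2, at 11.74, and highest on XII-I sample 1, at 12.16. The exact permutation test gave p = 0.0550 for this pair (adjusted p = 0.165), and p = 0.0246 without VII sample 2 (adjusted p = 0.148). The adjusted p was 0.0461 with VIII-IX and IX-XI joined and 0.0017 without VII sample 1, which leaves VII sample 2 alone in its group. Without that array Cox8a still ranged 0.43 log2, from II-IV to IX-XI, and Cox7b 0.37. For subunit 6b, Cox6b2 was at 12.38 to 12.56 in XII-I and II-IV, 12.67 and 12.70 in IV-VI, 12.86 and 12.52 in VII, 12.64 and 12.19 in VIII-IX and 12.27 and 12.51 in IX-XI, Cox6b1 at 10.83 on VII sample 2 and 10.34 to 10.64 elsewhere, and the exact permutation test gave p = 0.957. Their difference went opposite ways on the VII arrays, at 0.32 on sample 1 and -0.29 on sample 2.

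**Figure D3:**
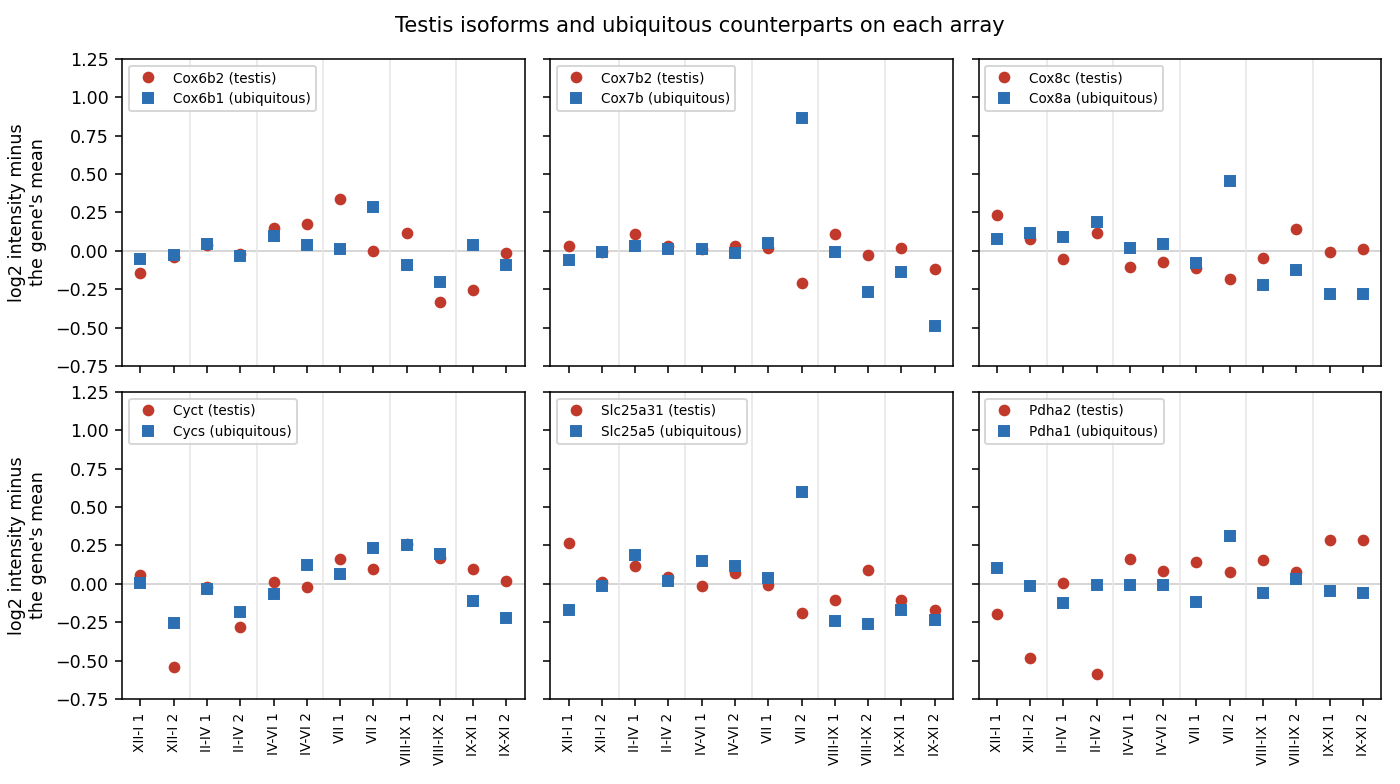
Log2 intensity minus the gene's mean over 12 arrays (vertical axis) on each array in the order of the cycle (horizontal axis), for 6 pairs of a testis isoform (circles) and its ubiquitous counterpart (squares). On VII sample 2, Cox7b (11.14), Cox8a (10.46) and Slc25a5 (11.77) are at their highest and Cox7b2 (10.67) and Cox8c (11.74) at their lowest.

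Pairs around the chain were read the same way. Slc25a31 and Slc25a5 encode the testis and a ubiquitous adenine nucleotide carrier, Cyct and Cycs testis and somatic cytochrome c, and Pdha2 and Pdha1 the testis and the X-linked alpha subunit of pyruvate dehydrogenase. Slc25a5 was at 11.77 on VII sample 2 and at 10.91 to 11.36 on the other arrays, and Slc25a31 was at 10.79 there and 10.81 to 11.24 elsewhere. Cyct was lowest on XII-I sample 2, at 9.32, and II-IV sample 2, at 9.58, and lay between 9.84 and 10.12 on the other arrays. Cycs lay between 11.63 on XII-I sample 2 and 12.14 on VIII-IX sample 1, with 11.77 and 11.66 in IX-XI. Pdha1 was at 8.38 on VII sample 2 and 7.94 to 8.17 elsewhere. Pdha2 was lowest on XII-I sample 2, at 9.60, and II-IV sample 2, at 9.50, and highest in IX-XI, at 10.37 on both arrays. The exact permutation p was 0.164 for the carriers, 0.357 for cytochrome c and 0.227 for pyruvate dehydrogenase, and the adjusted p 0.328, 0.428 and 0.340. Without VII sample 2 the range of Slc25a5 fell from 0.57 to 0.38 log2, while that of Slc25a31 stayed at 0.28.

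The somatic markers given above were high on VII sample 2, where Cox6b1, Cox7b, Cox8a, Slc25a5 and Pdha1 were also highest. This did not hold for all ubiquitous forms. Cycs, at 12.12, lay within the other arrays, and Cox7a2 (11.68), Cox5a (11.26) and Cox4i1 (11.29) lay below their means of 11.87, 11.29 and 11.33. The median deviation from each gene's mean on VII sample 2 was 0.39 log2 for 7 Sertoli, 0.71 for 5 Leydig and 0.54 for 4 macrophage markers. It was 0.12 for the 10 ubiquitous subunits of complex IV, -0.19 for the 3 testis isoforms and -0.18 for 7 elongating spermatid markers. Over all 101 members it was 0.02. The part of these markers in the isoform values was not tested. On VII sample 1 the summed intensities were 14340 for Sertoli and 14428 for Leydig markers. IX-XI sample 2 had the lowest Leydig sum, 8021, and the lowest Cox7b value, 9.79. XII-I sample 1 had the highest Leydig sum outside VII sample 2, 15218, with Cox7b at 10.22. Whether Cox7b followed these sums was not tested.

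**Figure D4:**
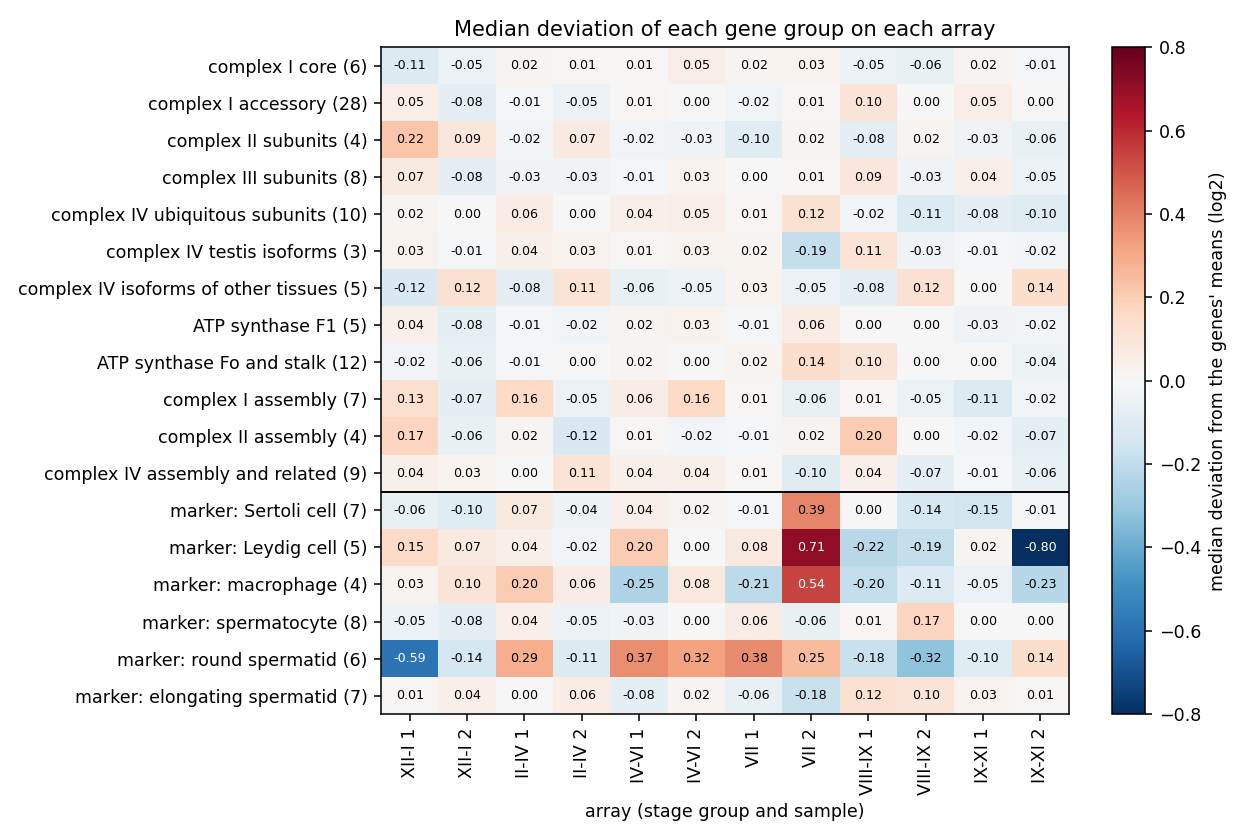
Median deviation of the genes of each role from their own means (colour and printed value, log2) on each of 12 arrays, with marker lists of other cell types below the line and the number of genes in brackets. VII sample 2 is high for Sertoli (0.39) and Leydig (0.71) markers and low for the testis isoforms of complex IV (-0.19).

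Isoforms typical of other tissues were not tested as pairs, and 1 of them, Ndufa4l2, is given above with XII-I. Cox7a1, the heart and muscle form of subunit 7a, was at 9.67 on VII sample 2 and 9.15 on VIII-IX sample 1, and at 8.45 to 8.96 on the other arrays (F test, adjusted p = 0.165). Without VII sample 2, also the highest array for Cox7b, Cox8a and the Sertoli and Leydig sums, its range fell from 0.73 to 0.42 log2. Cox6a2 and Cox8b, also of muscle, and Cox4i2, best known from lung, ranged 0.20, 0.25 and 0.08 and did not pass. Of 6 muscle markers 2 lay at or above the median of all genes and 0 passed the F test, with a summed intensity of 1992 on VII sample 2 and 1825 to 2264 elsewhere. The 5 fat markers summed to 1103 there and 827 to 1339 elsewhere, with Cidea the 1 marker past the F test.

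The X-linked members were Ndufa1, Ndufb11 and Cox7b, and all 3 were lowest in IX-XI, as were 15.0% of 742 X-linked genes and 10.2% of all genes. The chromosome is that of the gene by its symbol, and where each probe set matches the genome was not checked. Both probe sets of Ndufb11 and both of Cox7b had IX-XI as the lowest group. X-linked genes around the chain had other lowest groups, among them Pdk3 (XII-I), Slc25a5 and Idh3g (VIII-IX) and Pdha1 (II-IV). Ndufa1, a small subunit of complex I, was at 8.38 and 8.29 there, below all other arrays, which lay between 8.58 and 8.92, and fell by 0.37 ± 0.08 log2 (SE, n = 2 against 10; limma, adjusted p = 0.0435, kept in 4 of 12 leave-outs). Ndufb11, also of complex I, was at 9.64 and 9.37 in IX-XI and 9.79 to 10.35 elsewhere, with VII sample 2 highest (F test, adjusted p = 0.0712). Cox7b was at 10.14 and 9.79 in IX-XI, overlapping VIII-IX at 10.27 and 10.01.

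Single arrays weighed on where members peaked. VIII-IX sample 1 was the highest array for 26 members (25.7%, against 10.3% of all genes), XII-I sample 1 for 19 (18.8%, against 15.8%) and VII sample 2 for 16 (15.8%, against 11.5%), while XII-I sample 2 was highest for 0. By group means, VIII-IX was highest for 27 members (26.7%, against 14.0% of all genes) and IV-VI for 21 (20.8%, against 12.8%). XII-I was highest for 21 (20.8%, against 22.6%), VII for 15 (14.9%, against 12.9%), IX-XI for 12 (11.9%, against 27.3%) and II-IV for 5 (4.95%, against 10.3%). The differences between these shares were not tested. For 12 of the 18 members with more than 1 probe set, all sets had the same highest group.

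Genes that feed or build the chain were counted beside it. Of 25 measured genes of the tricarboxylic acid cycle and pyruvate dehydrogenase, 10 passed the F test (40.0%, against 19.9% of all genes), with a median range of 0.44 log2. Pdk1, a kinase that inhibits pyruvate dehydrogenase, ranged 2.13-fold and was highest in VIII-IX, and Dlst, of the 2-oxoglutarate dehydrogenase complex, 2.11-fold, highest in XII-I. Pdp1, the phosphatase that reactivates pyruvate dehydrogenase, spanned 2.07-fold with its peak in IV-VI, and Pdk3, an X-linked kinase, 2.04-fold, highest in VII. The F tests of Pdk1, Dlst, Pdp1 and Pdk3 held in 6, 3, 3 and 4 of 12 leave-outs. Ogdh and Suclg2, of consecutive steps of the cycle, passed the F test whichever array was left out: Ogdh rose in IX-XI by 0.61 ± 0.09 log2 and Suclg2 fell there by 0.53 ± 0.09 (SE, n = 2 against 10; limma, adjusted p = 0.0184 and 0.0216).

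Of 10 genes for cytochrome c, carriers and porins, 0 passed the F test, against 19.9% of all genes. In limma 3 had an unadjusted p under 0.05, against 36.2% of all genes. Among 28 other assembly factors 5 passed the F test (17.9%, near the share of all genes). The 4 widest were Coa3 (1.92-fold, highest in XII-I), Atpaf2 (1.73-fold, highest in IX-XI), Tmem126b (1.63-fold, highest in VII) and Foxred1 (1.60-fold, highest in IX-XI). The F tests of these 4 held in 12, 6, 2 and 12 of 12 leave-outs. Of 9 regulators of nuclear respiratory genes 1 passed, Gabpb1, a partner of GABPA, which spanned 1.81-fold and peaked in IX-XI (adjusted p = 0.0474, kept in 1 of 12 leave-outs). Gabpa itself rose in XII-I by 0.57 ± 0.13 log2 (limma, adjusted p = 0.0304), but its F test gave adjusted p = 0.0518. Nrf1 ranged 0.61 log2 (F test, adjusted p = 0.0629).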

How the data were processed

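Whole-testis RNA (100 ng) was amplified, and 3.75 ug of cDNA was labelled and read on Mouse Gene 1.0 ST arrays, per the labels' protocols. The authors deposited RMA intensity values per probe set on a linear scale, from 24.97 to 21760, per the submitters' processing notes and the values themselves. RMA makes the arrays' distributions alike, so changes are relative and shifts in total RNA cannot be seen. The software version and annotation build are not given in the sources used here. Arrays have no read depth, and precision is limited by their number.

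Values were transformed to log2. The annotation paired 21789 of 28853 probe sets with 1 symbol, 1621 with several and 5443 with none. Only the first were used, with the brightest set per gene, which left 19938 genes, and 7 probe sets of the chain with several symbols were left out (Cox7c, for one, is not analysed here). Many of these genes have near-identical processed pseudogenes that their probes may also read. limma 3.58.1 in R 4.3.3 fitted 6 group means to 12 arrays with 6 residual degrees of freedom. The moderated F test, and contrasts between a group and the mean over the remaining 5, were adjusted by Benjamini-Hochberg over all genes, at 0.05. The contrasts share arrays. Isoform differences were tested by exact permutation over arrays, adjusted over 6 pairs. The code was tested on simulated data. Alternatives were repeated quantile normalization, a replicate block, the mean of probe sets, omission of the dimmest 30% of genes, array weights, joining VIII-IX with IX-XI, and leaving out arrays. Members, lists and tests were chosen with earlier results of these data known. Named members are the isoform pairs, the 10 widest past the F test, the widest of each role without one, all others called, the narrowest of each role and those on X. Spermatogonium, myoid and blood markers were also measured: 1 of 6, 0 of 4 and 1 of 1 passed the F test. Promoters came from RefSeq (83 of 101 members matched by symbol).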

Additional observations from a re-analysis of the deposited data

How the results depend on the processing

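The count of 13 members past the F test was 12 to 16 under 6 alternatives: 15 with repeated quantile normalization, 12 with a replicate block, 14 with the mean of probe sets, 14 without the dimmest 30% of genes, and 16 with array weights or with VIII-IX and IX-XI joined. With VIII-IX and IX-XI each reduced to sample 1 the count was 0, as were those in XII-I, VIII-IX and IX-XI, in a fit with fewer arrays. The share of all genes past the F test was 19.8% to 29.6% in the first 6 and 0.0953% in the last. Leaving out 1 array gave 4 to 12 past the F test (7.61% to 21.4% of all genes), 0 to 8 in XII-I, 0 to 1 in II-IV, 0 to 4 in IV-VI, 0 to 4 in VII, 0 to 9 in VIII-IX and 0 to 4 in IX-XI. With array weights the counts were 2 in XII-I, 9 in IV-VI, 1 in VIII-IX and 11 in IX-XI, beside 2.77%, 15.2%, 1.94% and 12.2% of all genes. Both arrays of a group had the same weight, 1.928 in IV-VI, 1.603 in IX-XI and 0.6927 to 0.9391 in the other groups. The weights therefore could not set an array against its partner. With a replicate block they were 1 in II-IV and 5 in IX-XI (3.76% and 5.85% of all genes), and repeated quantile normalization also gave 5 in IX-XI (4.40%). The cause of these moves was not tested. Sample numbers paired the arrays poorly: of 15 correlations between deviations of same-numbered samples, 7 were over 0.1, from -0.35 to 0.54, so the block is given only here. For the isoform pairs the block gave adjusted p of 0.964 (Cox6b), 0.050 (Cox7b, at the threshold and not below it) and 0.178 (Cox8) in exact permutation tests.

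For Cox7b2 and Cox7b the adjusted exact permutation p was 0.0300 with the mean of probe sets, 0.0307 with VIII-IX and IX-XI joined and 0.0339 to 0.546 over leave-outs. For Cox8c and Cox8a it was 0.0461 with the groups joined and 0.0017 to 0.546 over leave-outs. The lowest values came without VII sample 1, which leaves VII sample 2 alone in its group. Leave-outs gave 0.498 to 0.981 for Cox6b2 and Cox6b1, 0.215 to 0.803 for Cyct and Cycs, 0.0339 to 0.546 for Slc25a31 and Slc25a5, and 0.241 to 0.546 for Pdha2 and Pdha1. No called difference of a member changed sign under any alternative run.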
